A study of Oryza sativa with 4 samples.

Results

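Auxin is read by nuclear proteins of the Aux/IAA and ARF families, and 52 rice genes of these families were followed in protoplasts of root tips: 31 Aux/IAA genes (IAA1 to IAA31) and 21 auxin response factor genes. The members were taken by gene identifier as genes of these families. Of the 52 genes, 41 were listed for at least 1 of the cultivars and 23 for both, namely 14 Aux/IAA and 9 ARF genes. The other 11 identifiers were not analysed here. In all, 20567 identifiers were listed for at least 1 cultivar and 8576 for both.

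The cultivars were 93-11, an indica rice, and Nipponbare, a japonica rice. Both groups were untreated seedlings 3 days into culture in nutrient solution, from which 5 mm tips of 800 crown roots were digested with wall-degrading enzymes to free the cells. Each cultivar had 2 libraries of poly(A) RNA. The labels do not say whether these came from separate digestions, so p-values measure only the spread between the libraries, which may be technical, and effects of the cultivar cannot be told apart from those of its cell preparation.

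Aux/IAA proteins are short-lived repressors. They bind ARF proteins at auxin-responsive promoters and recruit TOPLESS-type corepressors. Auxin joins an Aux/IAA protein to an F-box receptor of the TIR1/AFB type, the repressor is degraded, and the ARF is released. ARFs with a glutamine-rich middle region act as activators and most others as repressors, and many Aux/IAA genes are themselves induced by auxin. In root tips the system acts in the meristem, in gravitropism and in the initiation of lateral roots.

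Levels are given in RPM, read numbers scaled to a common library total. The totals implied by the values lay between 21504426 and 21504715 reads, so 1 read was worth 0.0465 RPM and 0 reads allow up to 0.140 RPM, the worth of 3 reads. This limit covers counting error only. Across well-covered genes (at least 1000 reads over both libraries of a cultivar) the typical (median) gap between libraries was 5.14% for 93-11 and 2.57% for Nipponbare. Of 8 markers of root cell types 6 were listed for both cultivars, with a summed level of 7391 and 7940 RPM in 93-11 and 3371 and 3339 RPM in Nipponbare, nearly all of it from the root-specific gene RCc3. All 6 were higher in 93-11 in RPM, RCc3 2.26-fold and PHO1;2 1.67-fold but EXPA17 24.8-fold. Under median-ratio scaling, explained below, PHO1;2 had a log2 difference of 0.17 and was not called different. Under quantile normalization, also explained below, it turned to -0.34 and was called higher in Nipponbare. FH1 was at 42.5 and 41.4 RPM in 93-11 and at 1 and 0 reads in Nipponbare. Lsi2, at 10.2 and 12.8 RPM in 93-11, and SHR1, at 1.63 and 1.67 RPM, were at 0 reads in Nipponbare. CASP1 was listed for 93-11 alone, at 34.4 and 34.3 RPM, and Lsi1 for Nipponbare alone, at 4.19 and 4.88 RPM. Markers of the meristem differed far more in their sum. All 8 were listed for both cultivars and summed to 330.3 and 336.8 RPM in the 93-11 libraries but 1.26 and 1.44 RPM in the Nipponbare libraries. There 5 of the 8 were at 0 reads, among them the mitotic cyclin genes CYCB2;1 and CYCB2;2 and QHB, a gene of the quiescent centre. QHB had only 5 and 17 reads in the 93-11 libraries, however. It was not called different in the comparison below, made without a filter on low values. Of 5 leaf markers only CAB1R was listed for both, at 5.21 and 5.53 RPM in 93-11 and at 0 reads in Nipponbare. RbcS4, at 0.698 and 0.837 RPM, and LHCP2, at 0.651 and 0.930 RPM, were listed for Nipponbare alone. Of 6 widely expressed genes 4 were listed for neither cultivar. ACT1 was listed for Nipponbare alone, at 72.3 and 67.5 RPM. LOC_Os01g22490, entered as UBQ5, was listed for both and was 6.01-fold higher in 93-11. The RefSeq gene table has the name UBQ5 on another chromosome.

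Few of the genes listed for both cultivars had similar levels. Among the 2562 with over 200 reads in each cultivar, 249 had a log2 ratio of 93-11 over Nipponbare between -0.5 and 0.5, and 207 between 0.5 and 1.5. On either side lay 490 genes between -1.5 and -0.5 and 372 between 1.5 and 2.5. The histogram of these ratios therefore has a peak on each side of a gap. The taller peak is on the Nipponbare side, with 278 genes between -1.5 and -1 against 201 between 2 and 2.5. No source used here gives the reason a gene was listed, and whether its difference between the cultivars had a part in it was not tested. A large difference is thus common among the listed genes, and the auxin genes are read against that background.

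**Figure D1:**
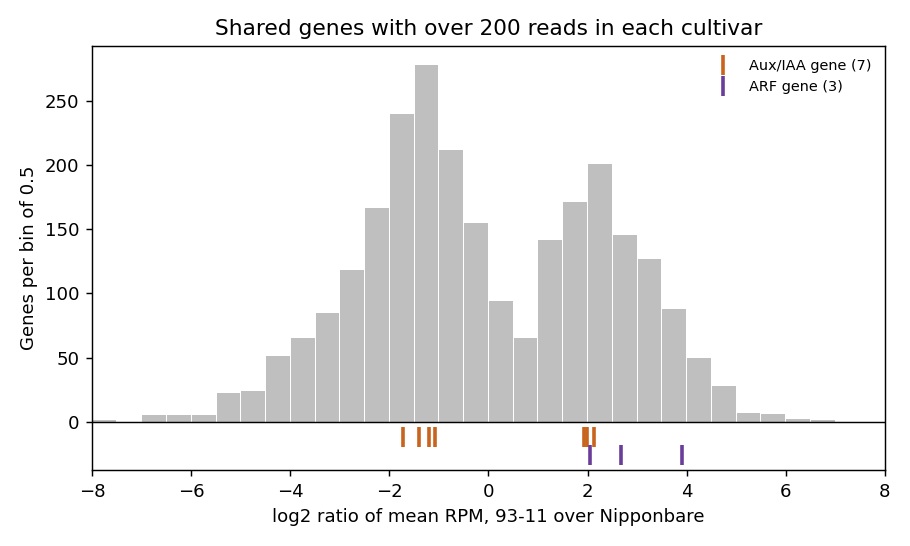
Histogram of the log2 ratio of mean RPM, 93-11 over Nipponbare (x axis, bins of 0.5), for the 2562 genes with over 200 reads over the 2 libraries of each cultivar; the y axis counts genes. Ticks under the axis mark the 7 Aux/IAA and 3 ARF genes that met this limit: 4 Aux/IAA genes lie under the left peak, and 3 Aux/IAA genes and the ARF genes on the right.

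The cultivars were compared with limma on log2(RPM + 1) over 7269 shared genes, those whose level averaged 1 RPM or more across the 4 libraries. This scale understates the change of low genes. Of these genes 96.9% were called at an adjusted p of 0.05, 59.0% as higher in 93-11 and 37.9% as higher in Nipponbare, and the median difference of all genes was 1.44 toward 93-11. Under median-ratio scaling, which divides each library by its median ratio to the average library, that median was 1.03, and 97.5% were called (56.8% higher in 93-11 and 40.7% in Nipponbare). Under quantile normalization, which gives every library the same distribution, the median was 0.59, and 95.3% were called (53.5% and 41.8%). Without the filter on low values 96.0% of 8576 genes were called (61.5% and 34.4%). With a filter at 5 RPM, 54.4% of 4911 genes were called higher in 93-11 and 43.6% in Nipponbare. In bulk RNA, fewer cells of a type and less RNA per cell cannot be told apart.

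The Aux/IAA family split between the cultivars. Of its 14 shared genes, 10 passed the filter on low values, and 6 of these were higher in 93-11 (60% against 59.0% of all genes) and 4 in Nipponbare (40% against 37.9%), close to the background in each direction. Their median log2 difference was 1.92, against 1.44 for all genes. It was 1.42 against 1.12 without the filter, and turned to -1.07 against 1.17 with a filter at 5 RPM, which left out IAA2, IAA26 and IAA27 and kept 3 genes higher in 93-11 and 4 higher in Nipponbare. A gene with 0 reads in Nipponbare passes the filter only if its level in 93-11 is high enough, so the count of those that passed does not speak for the family. With the genes at 0 reads set to their lower bounds, the median log2 fold was 1.97 for the 10 genes and 1.82 for all genes tested.

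The abundant members that were higher in 93-11 differed by about the same factor. Their log2 differences are to be read against the median of 1.44 for all genes. IAA31 (LOC_Os12g40900) was at 479 and 461 RPM in the 93-11 libraries and at 116 and 119 RPM in the Nipponbare libraries. Both values of 93-11 lay far above both of Nipponbare, 3.99-fold on average (log2 difference 1.99, SE 0.0375, limma adjusted p = 1.37e-06). IAA11 (LOC_Os03g43400), whose stabilised mutant form blocks lateral root initiation in rice, was at 85.3 and 80.8 RPM in 93-11 and at 19.3 and 18.4 RPM in Nipponbare. It was 4.40-fold higher in 93-11, again without overlap (log2 difference 2.08, SE 0.0563, limma adjusted p = 2.78e-06). IAA24 (LOC_Os07g08460) was at 142 and 153 RPM in 93-11 and at 39.6 and 37.3 RPM in Nipponbare, 3.83-fold higher in 93-11 with a log2 difference of 1.91 (limma adjusted p = 4.02e-06).

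The other 3 genes called higher in 93-11 had no reads in Nipponbare. IAA27 (LOC_Os11g11410) was at 5.21 and 6.46 RPM in 93-11 against 0 reads in each library of Nipponbare, a fold of at least 41.8 (log2 difference 2.77, SE 0.107, limma adjusted p = 8.38e-06). IAA2 (LOC_Os01g09450), at 4.0 and 4.32 RPM in 93-11, was at least 29.8-fold higher (log2 difference 2.37, SE 0.0642, limma adjusted p = 2.80e-06). IAA26 (LOC_Os09g35870), at 2.70 and 2.98 RPM, was at least 20.3-fold higher (log2 difference 1.94, SE 0.0630, limma adjusted p = 4.69e-06). These are low-level transcripts whose fitted differences depend on the added 1 RPM and give no bound on the fold.

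Another 3 low members showed the same arrangement but did not reach the mean of 1 RPM. IAA8 (LOC_Os02g49160) was at 1.77 and 1.53 RPM in 93-11, IAA16 (LOC_Os05g09480) at 1.86 and 1.58 RPM, and IAA25 (LOC_Os08g01780) at 1.72 and 1.58 RPM, each with 0 reads in both Nipponbare libraries. The lower bounds of their folds were 11.8, 12.3 and 11.8. With no filter limma called them higher in 93-11 (adjusted p = 7.50e-05, 9.23e-05 and 4.03e-05). So 6 of the 14 shared Aux/IAA genes had reads in both 93-11 libraries and none in Nipponbare, an arrangement found in 23.4% of all shared genes. No shared Aux/IAA gene was at 0 reads in 93-11.

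In Nipponbare 4 members were higher, by smaller factors. IAA19 (LOC_Os05g48590) was at 271 and 270.1 RPM in Nipponbare and at 126 and 130 RPM in 93-11, 2.12-fold higher in Nipponbare (log2 difference -1.07, limma adjusted p = 4.40e-06). IAA9 (LOC_Os02g56120) was at 74.9 and 76.0 RPM in Nipponbare and at 31.8 and 33.8 RPM in 93-11, a fold of 2.30 (log2 difference -1.18, limma adjusted p = 1.30e-05). In neither gene did the libraries of the cultivars overlap. IAA15 (LOC_Os05g08570) had the greatest fold of these, 3.32, at 64.7 and 65.4 RPM in Nipponbare against 20.3 and 18.8 RPM in 93-11 (log2 difference -1.68, limma adjusted p = 5.62e-06). IAA23 (LOC_Os06g39590), whose stabilised mutant form disturbs the quiescent centre of rice roots, was at 46.2 and 45.3 RPM in Nipponbare and at 15.5 and 19.2 RPM in 93-11. It was 2.64-fold higher in Nipponbare (log2 difference -1.36, limma adjusted p = 0.000143), with the widest gap between 93-11 libraries of these 4 genes.

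IAA14 (LOC_Os03g58350) was the single shared member whose libraries overlapped. It was at 0.977 and 0.698 RPM in 93-11 and at 0.605 and 1.26 RPM in Nipponbare, under the filter, and with no filter limma did not call it (log2 difference -0.05, adjusted p = 0.805). Over all 14 shared members, both 93-11 libraries lay above both Nipponbare libraries in 9 and below them in 4, where the shares of all shared genes were 62.6% and 35.6%.

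**Figure D2:**
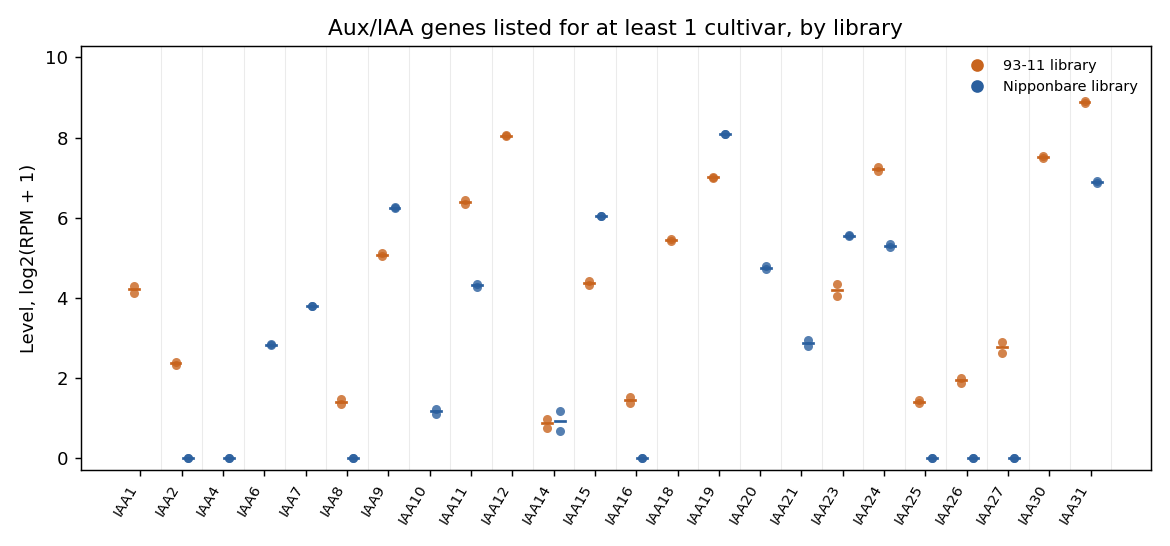
Level of the 24 Aux/IAA genes listed for at least 1 cultivar, as log2(RPM + 1) on the y axis; each dot is a library, orange for 93-11 and blue for Nipponbare, the short line is the mean of the 2 libraries, and a colour is missing where the gene was not listed for that cultivar. Dots of 1 cultivar nearly coincide, IAA9, IAA15, IAA19 and IAA23 are higher in Nipponbare, and IAA2, IAA8, IAA16, IAA25, IAA26 and IAA27 lie at 0 there.

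The opposite directions changed the proportions of Aux/IAA transcripts within a library, a measure in which the scaling of the library cancels. For 1 read of IAA9 there were 15.1 and 13.7 reads of IAA31 in the 93-11 libraries, but 1.55 and 1.57 in the Nipponbare libraries. The ratio of IAA24 to IAA15 was 6.98 and 8.12 in 93-11 and 0.611 and 0.571 in Nipponbare. Over the 12 pairs of IAA11, IAA24 or IAA31 with IAA9, IAA15, IAA19 or IAA23, the ratio was between 8.11-fold and 14.6-fold higher in 93-11. The genes were paired after their directions were known, so these ratios describe the libraries and carry no test. They compare each pair with itself between cultivars and do not rank genes of different length. Summed over the 14 shared members, Aux/IAA transcripts came to 918 and 916 RPM in 93-11 and 633 and 633 RPM in Nipponbare. Of this IAA31 alone gave 479 and 461 RPM in 93-11 and 116 and 119 RPM in Nipponbare. Its gap is wider than that of the sums, so the higher sum in 93-11 does not hold for the other members together.

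Members listed for 1 cultivar had no counterpart to compare. For 93-11 these were IAA12 (LOC_Os03g43410) at 265 and 264 RPM, IAA30 (LOC_Os12g40890) at 179 and 184 RPM, IAA18 (LOC_Os05g44810) at 43.5 and 41.8 RPM, and IAA1 (LOC_Os01g08320) at 16.4 and 18.7 RPM. By their identifiers IAA12 and IAA30 are the direct neighbours of IAA11 and IAA31. For Nipponbare they were IAA20 (LOC_Os06g07040) at 26.7 and 25.4 RPM, IAA7 (LOC_Os02g13520) at 12.9 and 12.8 RPM, IAA21 (LOC_Os06g22870) at 6.74 and 5.95 RPM, and IAA6 (LOC_Os01g53880) at 6.23 and 6.05 RPM. IAA10 (LOC_Os02g57250), whose protein is bound by a coat protein of rice dwarf virus, was at 1.35 and 1.16 RPM and IAA4 (LOC_Os01g18360) at 0 reads, both for Nipponbare. The remaining 7 Aux/IAA genes were IAA3, IAA5, IAA13, IAA17, IAA22, IAA28 and IAA29.

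ARF genes went 1 way. All 9 listed for both cultivars passed the filter and were called higher in 93-11 in RPM, where 59.0% of all tested genes were; ARF10 turned under quantile normalization. Their median log2 difference was 2.17, against 1.44 for all genes, and their median log2 fold was 2.69, against 1.82. None was at 0 reads, and the folds ran from 1.84 to 15.4. With a filter at 5 RPM 6 ARF genes were left, all called higher in 93-11, against 54.4% of all genes. The summed level of the 9 genes was 254 and 248 RPM in 93-11 and 32.2 and 31.8 RPM in Nipponbare. The meristem markers moved in the same direction, at 330.3 and 336.8 RPM against 1.26 and 1.44 RPM. In RPM so did the 6 root markers listed for both cultivars, of which PHO1;2 turned under quantile normalization. The widely expressed gene entered as UBQ5 was also higher in 93-11. The part of these genes in this result was not tested.

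The activator class held the ARF genes with the greatest folds. ARF25 (LOC_Os12g41950) was at 47.0 and 43.4 RPM in 93-11 and at 2.56 and 3.30 RPM in Nipponbare, 15.4-fold higher (log2 difference 3.56, SE 0.116, limma adjusted p = 4.72e-06). ARF17 (LOC_Os06g46410) was at 84.0 and 79.0 RPM in 93-11 and at 5.72 and 5.16 RPM in Nipponbare, 14.98-fold higher (log2 difference 3.68, SE 0.073, limma adjusted p = 1.47e-06). Transcripts of both, and of their relative ARF6 (LOC_Os02g06910), carry sites for the microRNA miR167. ARF6 was listed for 93-11 alone, at 31.9 and 30.1 RPM.

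The other shared activators differed less. ARF5 (LOC_Os02g04810) was at 10.6 and 10.5 RPM in 93-11 and at 1.72 and 0.930 RPM in Nipponbare, where the libraries differed from each other, with a fold of 7.95 (log2 difference 2.33, SE 0.18, limma adjusted p = 0.00012). ARF16 (LOC_Os06g09660), which takes part in phosphate starvation responses in rice, was at 27.3 and 29.0 RPM against 6.98 and 6.56 RPM, 4.16-fold higher (limma adjusted p = 7.05e-06). The libraries of the cultivars did not overlap in either gene. For 93-11 alone were listed ARF21 (LOC_Os08g40900), at 32.2 and 31.4 RPM, and ARF11 (LOC_Os04g56850), at 2.51 and 1.44 RPM. The eighth activator was ARF19.

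ARF8, ARF10 and ARF22 belong to the group whose transcripts are targets of the microRNA miR160, and all 3 were listed for both cultivars. ARF8 (LOC_Os02g41800) was at 49.1 and 50.5 RPM in 93-11 and at 7.77 and 7.72 RPM in Nipponbare, 6.43-fold higher (log2 difference 2.54, SE 0.0554, limma adjusted p = 1.72e-06). ARF22 (LOC_Os10g33940) was at 22.3 and 22.4 RPM against 4.09 and 4.28 RPM, 5.34-fold higher (log2 difference 2.17, SE 0.0674, limma adjusted p = 4.07e-06). ARF10 (LOC_Os04g43910) had the smallest difference of the family, at 3.63 and 4.14 RPM against 1.81 and 2.42 RPM, a fold of 1.84 with a limma adjusted p = 0.00518 (0.000464 to 0.119 over the alternatives). Its log2 difference was 0.65, where the median of all genes was 1.44. Median-ratio scaling left it at 0.25, not called (limma adjusted p = 0.0960), and it turned to -0.41, called higher in Nipponbare, under quantile normalization. Without 93-11 replicate 1 it was 0.73 (limma adjusted p = 0.0846) and without 93-11 replicate 2 it was 0.58 (limma adjusted p = 0.119), with no call. In such fits the lone 93-11 library is assumed to vary like those of Nipponbare.

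Of the 4 ETTIN-like ARFs, which in Arabidopsis shape leaf and flower polarity and are regulated by trans-acting small RNAs, 2 were listed for both cultivars and were higher in 93-11. ARF14 (LOC_Os05g43920) was at 5.86 and 4.84 RPM in 93-11 and at 0.837 and 0.512 RPM in Nipponbare, a fold of 7.93 (limma adjusted p = 8.92e-05). ARF3 (LOC_Os01g54990) was at 3.91 and 4.70 RPM against 0.744 and 0.884 RPM, a fold of 5.29 (limma adjusted p = 6.77e-05). The Nipponbare values rest on 11 to 19 reads per library, and yet no Nipponbare library reached a 93-11 library. ARF15 (LOC_Os05g48870), at 9.30 and 9.25 RPM, and ARF2 (LOC_Os01g48060), at 4.74 and 4.56 RPM, were listed for 93-11 alone.

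The repressor class as entered here held 6 genes, apart from the miR160 and ETTIN-like groups. None of the 6 was listed for both cultivars, so the ARF result above does not cover them. ARF9 (LOC_Os04g36054) was listed for 93-11 at 145 and 132 RPM. ARF7 (LOC_Os02g35140) was listed for Nipponbare at 31.5 and 32.6 RPM, and ARF24 (LOC_Os12g29520) for Nipponbare at 0.279 and 0.186 RPM, 6 and 4 reads. The others were ARF4, ARF20 and ARF23.

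**Figure D3:**
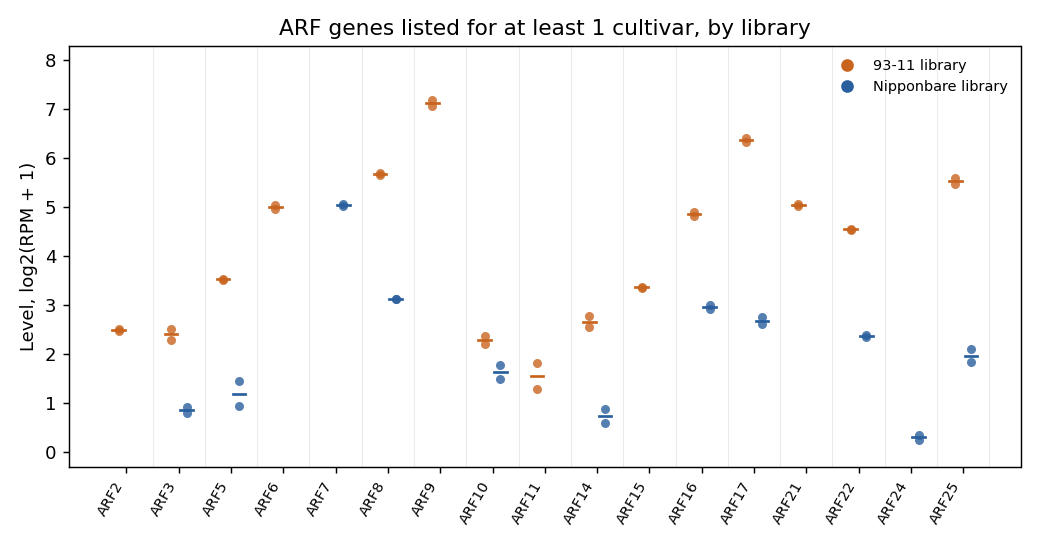
Level of the 17 ARF genes listed for at least 1 cultivar, as log2(RPM + 1) on the y axis; each dot is a library, orange for 93-11 and blue for Nipponbare, the short line is the mean of the 2 libraries, and a colour is missing where the gene was not listed for that cultivar. In each of the 9 genes with both colours the 93-11 dots lie above the Nipponbare dots, with the narrowest gap in ARF10.

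Of 36 other genes of auxin perception, transport and synthesis, 10 were listed for Nipponbare alone, 1 for 93-11 alone and 12 for neither, so these were not compared. Among those of Nipponbare alone was LOC_Os08g06480, entered as the corepressor gene TPR2, at 36.8 and 35.6 RPM. The RefSeq gene table has that name on another chromosome. Others were the efflux carrier gene PIN1b (LOC_Os02g50960), at 5.07 and 5.16 RPM, and GH3.2 (LOC_Os01g55940), at 4.98 and 5.21 RPM. All were chosen after their values were seen. PIN1a, PIN1c, PIN9, AUX3 and GH3.1 were listed for Nipponbare alone at 0 reads. Of the 13 listed for both cultivars, 11 were tested and all 11 called higher in 93-11 in RPM (59.0% of all tested genes), with a median log2 difference of 2.21; GH3.8 turned under median-ratio scaling. Of the 11, those entered as YUC3 and GH3.4 had 0 reads in Nipponbare and passed the filter through 93-11 alone. In perception and corepression, LOC_Os04g32460, entered as the F-box receptor gene AFB2, was at 116 and 108 RPM in 93-11 and at 2.70 and 2.60 RPM in Nipponbare, 42.2-fold higher. LOC_Os02g52230, entered as AFB4, was 21.3-fold higher and LOC_Os05g05800, entered as the receptor gene TIR1, 4.77-fold higher. These 3 names were not found in the RefSeq gene table and were not checked. TPR3 (LOC_Os03g14980), a TOPLESS-type corepressor gene, was at 174 and 172 RPM against 19.8 and 18.9 RPM, 8.94-fold higher.

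Among transporters only the efflux carrier gene PIN2 (LOC_Os06g44970), which serves root gravitropism, was tested, and it was 15.02-fold higher in 93-11. In synthesis and conjugation 6 genes were tested. TAA1 (LOC_Os01g07500), the aminotransferase gene of auxin synthesis, was at 16.4 and 15.9 RPM against 3.49 and 5.02 RPM, 3.79-fold higher in 93-11. LOC_Os04g03980, LOC_Os07g25540 and LOC_Os01g53200, entered as the YUCCA monooxygenase genes YUC7, YUC6 and YUC3 with unchecked names, were 4.83-fold, 3.74-fold and at least 32.5-fold higher. GH3 enzymes conjugate auxin to amino acids. GH3.4 (LOC_Os05g42150) had 0 reads in Nipponbare and was at least 23.2-fold higher in 93-11. GH3.8 (LOC_Os07g40290) was nearly level, at 44.4 and 50.8 RPM in 93-11 and at 38.4 and 36.9 RPM in Nipponbare (log2 difference 0.33, limma adjusted p = 0.0117, 0.00348 to 0.0893 over the alternatives). Under median-ratio scaling GH3.8 was called higher in Nipponbare (-0.20), and with either Nipponbare library left out, the other assumed to vary like those of 93-11, it was not called (0.35 and 0.30, limma adjusted p = 0.0623 and 0.0893).

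**Figure D4:**
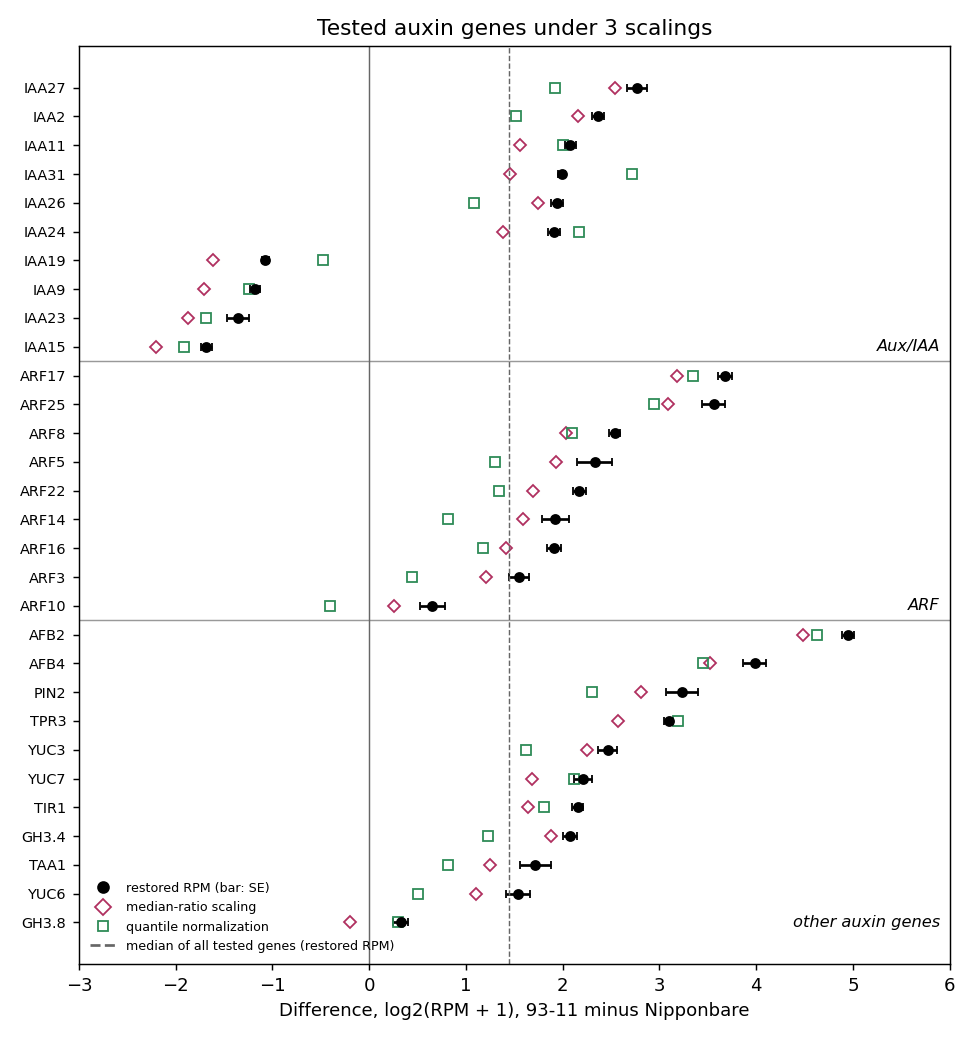
Difference between cultivars on the log2(RPM + 1) scale, 93-11 minus Nipponbare (x axis), for the 10 Aux/IAA, 9 ARF and 11 other auxin genes tested. Black dots with SE bars are from the restored RPM, red diamonds from median-ratio scaling and green squares from quantile normalization; the dashed line marks the median of all tested genes, 1.44. IAA9, IAA15, IAA19 and IAA23 lie left of 0 under the 3 scalings, and ARF10 and GH3.8 cross 0.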

How the data were processed

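Per the submitters' processing notes HISAT2 2.0.4 and HTSeq 0.11.2 were used. The genome build and annotation are not known here. For each cultivar the authors deposited a table of RPM, in another form than plain RPM, since values of 1 RPM or more had lost their decimal point. The point was restored as the power of 10 that gave a whole number of reads of the library total (tolerance 1e-06 reads plus 1e-12 of the value), taking the pair of candidates closest between the 2 libraries and the lowest of equally close pairs. Agreement between the libraries is therefore partly built in. Where a gene's true read numbers end in 0 in both libraries, its RPM come out too low by a factor of 10. Of the 19 tested members, 13 rest on 4 restored values, and 11 of these differ by less than 10-fold, so such an error could turn them; values below 1 RPM cannot be wrong in this way. Between 42.3% and 55.7% of the library totals fell in listed genes.

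The fit used limma 3.58.1 in R 4.3.3 with trended variance and Benjamini-Hochberg adjustment, and restoring and fit were tested on simulated data. Wrong restorations there came to 1.09% for 93-11 and 1.17% for Nipponbare of the genes with enough reads for such an error. Nearly all known differences were recovered, but false calls exceeded the nominal rate. Of 288 calls 94 were false, and 79 of these were genes whose decimal point had been wrongly restored. Few genes differed in the simulation, unlike in these data, so its share of false calls does not carry over. Members and lists were chosen with earlier results of these data known. All members listed for both cultivars are named, as are the tested genes of the other auxin lists, and of members listed for 1 cultivar at least the 5 highest per family; statistics are in full for the 5 greatest differences per family. Of 52 member names, 47 were found in the RefSeq gene table of ASM3414082v1 on the chromosome the identifier gives; 46 had a single hit, and 0 of 107 pairs on a chromosome were out of identifier order. IAA22, IAA27, IAA28, ARF11 and ARF20 were not found, and their names were not checked. The same holds for the root markers RCc3 and FH1, the meristem markers PLT1, PLT2 and CRL1, the leaf markers RbcS2, RbcS4 and LHCP2, and AUX3. Levels per length were planned but not computed, since no transcript lengths were at hand, so genes are not ranked against each other. Alternatives were other pseudocounts, filters and scalings, leaving out each library, the replicate block and voom.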

Additional observations from a re-analysis of the deposited data

How the results depend on the processing

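The 10 tested Aux/IAA genes kept their direction and their call under every alternative that tested them (pseudocounts 0.5 and 0.1, no filter, a mean of at least 5 RPM, median-ratio scaling, quantile normalization, leaving out each library, the replicate block, and voom on the restored reads, the last chosen after seeing the data). So did the ARF genes except ARF10, which was lost (0.25) under median-ratio scaling, turned (-0.41) under quantile normalization, and was lost without either 93-11 library (0.58 to 0.73). Of the other auxin genes only GH3.8 changed, turning (-0.20) under median-ratio scaling and being lost without either Nipponbare library (0.30 to 0.35). As a result 1 ARF gene was higher in Nipponbare under quantile normalization and 1 other auxin gene under median-ratio scaling, against 0 of each in RPM. With a mean of at least 5 RPM, 7 Aux/IAA genes were tested, 3 higher in 93-11 and 4 in Nipponbare, and their median log2 difference turned to -1.07; over all genes 2671 were higher in 93-11 and 2140 in Nipponbare. Fewer genes were tested there. IAA2, IAA26 and IAA27, and among the other auxin genes YUC3 and GH3.4, were left out there and had 0 reads in Nipponbare. Another pseudocount, scaling by a factor or leaving out a library could not turn such genes. Their unchanged direction under those alternatives therefore carries no support. Leaving out each library, with the lone library of that cultivar assumed to vary like those of the other, gave 10 called Aux/IAA genes each time, 8 to 9 ARF genes, 10 to 11 other auxin genes and 6788 to 6925 of all genes.

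The replicate numbers are shared by the cultivars, but with 2 pairs and a correlation of 0.02 across genes between the differences of the libraries they only name samples. The replicate block gave 10 Aux/IAA, 9 ARF, 11 other auxin and 7070 of all genes called, against 7047 without it. Restoring the highest of equally close pairs was not run, and the sum it would give was not computed. With each value at its own highest candidate, the sum was over 3427 times the library total. Levels with and without length could not be set side by side.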
